A study of Mus musculus with 4 samples.

Results

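The array used for this series carries many probes that are named by a stretch of the genome and not by a gene. The subject here is the short ones: every non-control probe whose name is a position on mouse build mm9 with a strand letter, F or R, and whose interval spans less than 10000 bases. The rule used names and lengths, not signals, and it took 6604 of 55681 non-control probes. They represent 2199 combinations of interval and strand, or 1964 intervals when strand is ignored, on 20 chromosomes (1 to 19 and X). A probe was called read where the scanner software marked it as well above background on all 4 arrays, which held for 1670 probes from 930 combinations of interval and strand.

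RNA came from bone marrow LSK cells, the lineage-negative, Sca-1-positive, c-Kit-positive fraction that holds blood stem cells and multipotent progenitors, of mice on the C57BL/6 strain. There were 4 groups with 1 array each: Sf3b1+/- transplanted, wild-type (WT) transplanted, Sf3b1+/- native and WT native. Native cells were taken from mice at 20 weeks of age. For the transplanted groups, whole marrow of either genotype that carried the CD45.2 form of the leukocyte antigen was given to irradiated CD45.1 recipients, and CD45.2-positive LSK cells were sorted 9 months later. The Sf3b1 allele was lost from 1 copy in every cell of the donor and not in blood alone, and animals with no intact copy are not viable. How many mice stand behind an array, and the ages of donors and recipients, are not given in the sources used here, so the groups have no replicates and a difference between 2 arrays has no test of its own. Transplantation, the time since and the age of the animals cannot be told apart in the comparison of transplanted with native cells.

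Much of the mammalian genome outside annotated coding genes is transcribed, in part into long intergenic noncoding RNAs. Such RNAs are usually spliced, are on average less abundant than messenger RNAs and often differ between cell types. Some are known to act on neighbouring genes or on chromatin, while most have no known role. The SF3b complex belongs to the U2 particle of the spliceosome and helps it to recognise the branch point of an intron; its largest subunit is the product of Sf3b1, a gene that is frequently mutated in myelodysplastic syndromes with ring sideroblasts. The deposited files attach no gene, transcript class or function to the intervals, so they are named here by position. F and R are read as the strand letters of the probe names, and no more is known from the files of how an interval was defined. Several intervals of 1 strand can belong to 1 transcript, and 1107 of the 2199 combinations (50.3%) overlapped another interval on the same strand, so probes are not independent of each other.

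Signals were placed on a common scale by setting the 75th percentile of the probes read on all 4 arrays to 1000 units on each array. Differences are given as log2 of that scaled signal, Sf3b1+/- minus WT or transplanted minus native. The spread between repeat spots of 1 probe within an array had an SD of 0.19 (log2) below 31.25 units and of 0.11 from 31.25 to 125 units; each short-interval probe had 1 spot. The probe for Sf3b1 itself read 127 units in Sf3b1+/- and 137 units in WT transplanted cells, and 165 units in Sf3b1+/- and 219 units in WT native cells, differences of -0.11 and -0.41. All 10 LSK markers were read on all 4 arrays. Signals summed over 8 B cell genes were 2241 units in Sf3b1+/- and 2515 in WT transplanted cells, and 3307 in Sf3b1+/- and 8572 in WT native cells, with 3 of the 8 read on all 4 arrays and Pax5, which defines the B lineage, on none. Sums over 8 megakaryocyte genes, all read, were 32534 and 16854 units in Sf3b1+/- and WT transplanted cells, and 21674 and 14439 in Sf3b1+/- and WT native cells. Sums over 7 neutrophil and monocyte genes, all read, were 16582 and 22370 units in Sf3b1+/- and WT transplanted cells, and 16084 and 17374 in Sf3b1+/- and WT native cells. In transplanted cells the differences of S100a8, S100a9 and Camp, which encode granule and cytosolic proteins of neutrophils, were -1.25, -0.89 and -1.27. Those of Itgam and Csf1r were -0.42 and -0.26, while Ngp and Elane went the other way, at 0.14 and 0.26. The part of such cells in the results below was not tested.

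On these 4 arrays short intervals were above background in a smaller share than other probes, with the highest shares on the transplanted arrays. On the single arrays, 32.3% of their probes were well above background in Sf3b1+/- transplanted cells, 32.0% in WT transplanted, 29.6% in Sf3b1+/- native and 28.8% in WT native cells. Among the 39500 probes that name no stranded interval these shares were 57.8%, 56.3%, 55.1% and 54.1% in the same order, and among the 9577 probes of intervals of 10000 bases or more they were 33.1%, 32.4%, 29.7% and 28.9%. Both kinds of interval thus lay close together, and transplanted arrays stood above native arrays for every kind of probe. Of the short-interval probes, 4183 (63.3%) were above background on no array, 309 on 1, 214 on 2 and 228 on 3. Those read on all 4 arrays were dim: their median level was 51.4 units, against 56.2 units for long intervals and 278 units for the other probes.

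Interval length ran between 61 and 9986 bases with a median of 1502, and an interval and strand had 1 to 10 probes with a median of 3. The share read on all 4 arrays was 19.7% below 500 bases, 24.0% from 500 to 999, 33.9% from 1000 to 1999, 26.6% from 2000 to 4999 and 26.0% from 5000 to 9999 bases. Strand made little difference to that share, which was 24.2% of 3374 F probes and 26.5% of 3230 R probes. By chromosome it ran between 18.3% on chromosome 10 and 32.6% on chromosome 17. The intervals nearest to the limit in length were not informative: chr6:136440100-136450050 on R (9950 bases) and chr3:21964899-21974885 on F (9986 bases) lay just inside it, chr19:24978025-24988025 on F and R (10000 bases) just outside, and none of their probes was read on all 4 arrays.

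A few short intervals ranked among the brightest probes of the array. The R probe of chr7:108209996-108216032 read 103198 units in Sf3b1+/- and 133205 in WT transplanted cells, and 123811 in Sf3b1+/- and 140259 in WT native cells. Opposite to it, the F probes of the same interval were far dimmer, and the brighter of the 2 read 2566, 3640, 3510 and 4318 units in the same order. Next came chr19:5801802-5802597 on R, whose brightest of 3 probes read 69698 units in Sf3b1+/- and 110670 in WT transplanted cells, and 68819 in Sf3b1+/- and 73622 in WT native cells. Its 3 probes were lower in Sf3b1+/- by 0.64 to 0.74 (log2) after transplantation and by 0.10 to 0.17 in native cells, so the WT transplanted array was the highest for each. Also bright were chr17:17481706-17482457 on R, at up to 70500 and 77061 units in Sf3b1+/- and WT transplanted cells, and chr6:116123643-116124550 on F, at up to 40582 and 40838. Neither of these differed by more than 0.23 between genotypes in either setting. For chr17:39982023-39983277 on F the brightest of 3 probes read 33890 units in Sf3b1+/- and 47163 in WT transplanted cells, and 50988 in Sf3b1+/- and 65093 in WT native cells, which puts both transplanted arrays below both native ones. Signals of different probes also depend on their sequences, so these values order arrays within a probe and do not compare 1 RNA with another.

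Probes for both strands existed for 235 intervals. Both strands were read on all 4 arrays in 85 of them, F alone in 37, R alone in 54 and neither in 59. Where both were read, the medians of the F and the R probes had the same sign in 64 of 85 intervals for genotype in native cells and in 60 for genotype in transplanted cells. Most medians were below 0 in any case, in transplanted cells 68 of the F and 71 of the R medians and in native cells 64 and 65. Across the 85 intervals, whose strands share arrays and position, Pearson's r of the F and R medians was 0.03 in transplanted and 0.31 in native cells. For transplanted minus native the count was 45 of 85 in Sf3b1+/- and 52 of 85 in WT cells. The strands of chr5:35975265-35982561 show how they can part: in transplanted cells the 4 F probes were lower in Sf3b1+/- by 0.54 to 0.71 and the 4 R probes by 0.12 to 0.33. Between transplanted and native Sf3b1+/- cells the F probes differed by -0.38 to -0.21 and the R probes by 0.35 to 0.50. Its brightest F probe read 2239 units in Sf3b1+/- and 3441 in WT transplanted cells, and 2907 in Sf3b1+/- and 2502 in WT native cells. Reading strands apart in this way assumes that each probe detects the strand in its name, which the files do not show.

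Between genotypes, the short intervals lay lower in Sf3b1+/- cells than the array as a whole. Their median difference was -0.30 in transplanted cells, against -0.08 over all 24715 probes read, and -0.12 in native cells, against -0.04. In transplanted cells 69.9% of the short-interval probes lay below the median of all probes, and in native cells 61.1%. Long intervals gave nearly the same medians, -0.29 in transplanted and -0.11 in native cells, so the shift is shared by both kinds of interval. Scaling to the spike-in transcripts raises every difference by 0.61 in transplanted and 0.24 in native cells, which turns the short-interval medians to 0.32 and 0.12, against 0.53 and 0.21 for all probes. The distance to the median of all probes was -0.21 in transplanted and -0.08 in native cells; a scaling that adds 1 constant to all probes, as the spike-in one does, cannot change it. It was -0.195 and -0.077 with quantile normalization and -0.202 and -0.0766 with normexp correction of the background, which could. These are statements on probes of 4 arrays, with 1 array per group.

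The offset was present in each of 6 bins of signal level. Across these bins the short intervals' median in transplanted cells was between -0.32 and -0.26, and the other probes' median was between -0.12 and 0.02. In native cells the short intervals lay between -0.16 and -0.08 and the other probes between -0.09 and 0.03. The brightest bin held 80 short-interval probes above 1000 units, with medians of -0.29 in transplanted and -0.16 in native cells.

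Counts of larger differences are given beside the share of all probes. At least 2-fold lower in Sf3b1+/- were 59 of the 1670 probes (3.53%) in transplanted cells, where 1.46% of all probes were, and 28 (1.68%) in native cells, where 0.821% were. At least 2-fold higher were 8 (0.479%) in transplanted cells against 1.1% of all probes, and 6 (0.359%) in native cells against 0.445%. The native and the transplanted comparison share no array. In both of them 95 probes from 71 combinations of interval and strand were at least 1.5-fold lower, which is 5.69% against 1.77% of all probes, 2.93% of the long-interval and 1.31% of the other probes. In the opposite direction 5 probes were at least 1.5-fold higher in both, 0.299% against 0.546% of all probes. Scaled to spike-ins, 3 probes were lower in both (0.180%, against 0.125% of all probes) and 82 higher (4.91%, against 5.37%). Quantile normalization gave 63 lower and 11 higher, 3.77% and 0.659%, against 1.25% and 0.753% of all probes.

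Probes of 1 interval and strand differed less among themselves than intervals did. In the 419 combinations with 2 or more read probes, the SD of the difference within a combination was 0.22 in native and 0.26 in transplanted cells, against an SD between combination means of 0.36 and 0.38. Grouping read intervals of 1 strand with gaps of at most 50000 bases gave 745 loci, of which 50 had 6 or more read probes. Every read probe lay in 1 direction in each genotype comparison in 12 of the 50 loci: in 8 it was lower in both settings, in 3 higher in both, and in 1 lower after transplantation but higher in native cells. These counts depended on the scale: with spike-in scaling 1 locus was lower and 14 higher in both settings, with quantile normalization 6 and 3, and with normexp 16 and 0. The loci and their limits were set after the values were seen. Of the single short-interval probes read, 54.4% were below 0 in both genotype comparisons, against 41.4% of all probes. Above 0 in both were 13.8%, against 27.1%. More loci lower than higher throughout can thus be read off the general offset, and the same count over loci of other probes is not given here.

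All 3 probes of chr6:31007184-31007725 on R were lower in both settings. They read 72.6, 262 and 221 units in Sf3b1+/- transplanted cells, against 140.1, 574 and 472 in WT transplanted cells. In native cells they read 82.6, 322 and 281 units in Sf3b1+/-, against 159.9, 728 and 598 in WT. On the percentile scale each probe was thus near 2-fold lower in both settings, by 0.95 to 1.13 in transplanted and by 0.95 to 1.18 in native cells. The locus goes on to position 31079644 with 2 further read intervals; over its 7 probes the difference was -1.13 to -0.70 in transplanted and -1.18 to -0.14 in native cells. With spike-in scaling the 7 probes differed by -0.52 to -0.09 in transplanted and by -0.93 to 0.10 in native cells.

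On chromosome 9, chr9:65368908-65377592 on R was lower both in Sf3b1+/- cells and after transplantation. Its brightest probe read 30.7 units in Sf3b1+/- and 65.5 in WT transplanted cells, and 90.6 in Sf3b1+/- and 218 in WT native cells, with the native WT array on top and the Sf3b1+/- transplanted array lowest. All 3 probes followed, with genotype differences of -1.19 to -1.09 in transplanted and -1.37 to -1.11 in native cells, and setting differences of -1.56 to -1.10 in Sf3b1+/- and -1.73 to -1.04 in WT cells.

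On chromosome 2, 2 neighbouring intervals held the lowest genotype difference in native cells. One probe of chr2:128211990-128215223 on R read 96.6 units in Sf3b1+/- and 278 in WT transplanted cells, and 64.2 in Sf3b1+/- and 298 in WT native cells. Differences were -1.53 and -2.22, and its other read probe gave -0.81 and -1.95. In chr2:128217275-128217972 on R the 1 read probe gave 50.7 and 113 units in Sf3b1+/- and WT transplanted cells, and 31.6 and 114 units in Sf3b1+/- and WT native cells. The WT arrays of both settings were within 0.10 (log2) of each other for these probes.

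Both strands of chr16:84702353-84710928 were lower. On F its brightest probe read 237 units in Sf3b1+/- and 491 in WT transplanted cells, and 209 in Sf3b1+/- and 389 in WT native cells. With overlapping intervals the F locus had 7 read probes, all lower, by 0.75 to 1.24 in transplanted and by 0.43 to 1.08 in native cells, and they stayed below 0 with spike-in scaling (-0.63 to -0.14 and -0.84 to -0.19). The 3 R probes differed by -0.84 to -0.42 in transplanted and by -0.91 to -0.75 in native cells, the brightest in native WT cells reading 449 and 802 units in Sf3b1+/- and WT transplanted cells and 357 and 669 in Sf3b1+/- and WT native cells.

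Further intervals were lower in both settings. The 5 probes of chr5:75389503-75396250 on R were lower by 0.65 to 1.31 in transplanted and by 0.67 to 1.09 in native cells. One of them read 30.3 units in Sf3b1+/- and 65.6 in WT transplanted cells, and 31.1 in Sf3b1+/- and 66.2 in WT native cells, so settings hardly differed. A single read probe of chr3:113296823-113298691 on R gave 29.8 and 65.1 units in Sf3b1+/- and WT transplanted cells, and 29.0 and 72.5 units in Sf3b1+/- and WT native cells. Over 12 probes in 2 overlapping intervals, chr17:26911032-26917047 on F was lower by 0.38 to 0.74 in transplanted and by 0.30 to 0.92 in native cells; with spike-in scaling its median was 0.08 in transplanted and -0.44 in native cells. The spread over the 4 arrays was wide for chr13:28537223-28539860 on R, where 1 probe read 36.4 units in Sf3b1+/- and 130.5 in WT transplanted cells, and 128 in Sf3b1+/- and 257 in WT native cells. The other read probe of that interval differed less, by -0.70 in transplanted and -0.32 in native cells.

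Intervals higher in Sf3b1+/- cells in both settings were few. In chr14:70483555-70484159 on F, 1 probe read 119 units in Sf3b1+/- and 34.5 in WT transplanted cells, and 57.3 in Sf3b1+/- and 19.8 in WT native cells. Its differences were 1.78 and 1.53, the highest difference among short-interval probes in native cells, and the second read probe gave 0.59 and 0.52. The 3 probes of chr3:100363012-100369971 on R were higher by 0.40 to 0.72 in transplanted and by 0.70 to 1.04 in native cells; 1 of them, with the largest difference of the 3 in both settings, read 77.2 and 47.0 units in Sf3b1+/- and WT transplanted cells, and 70.0 and 34.1 units in Sf3b1+/- and WT native cells. For chr3:146645022-146646977 on F, 1 probe read 24.6 units in Sf3b1+/- and 13.6 in WT transplanted cells, and 45.1 in Sf3b1+/- and 23.9 in WT native cells. It had the largest difference of the 3 read probes, which were higher by 0.37 to 0.86 in transplanted and by 0.16 to 0.92 in native cells. The 5 read probes named by chr8:59994074-60002058 on F were higher in Sf3b1+/-, by 0.22 to 0.95 in transplanted and by 0.05 to 0.70 in native cells, and lower after transplantation, by 0.67 to 0.97 in Sf3b1+/- and by 0.67 to 1.22 in WT cells. With an overlapping interval the locus had 7 read probes, whose genotype differences were -0.30 to 0.95 in transplanted and -0.32 to 0.70 in native cells.

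Some genotype differences were large in 1 setting alone. The read probe of chr4:131905739-131910814 on R read 15.5 units in Sf3b1+/- and 70.2 in WT transplanted cells, but 51.6 in Sf3b1+/- and 39.1 in WT native cells. The read probe of chr9:51905865-51911474 on R went the other way, at 93.3 and 27.5 units in Sf3b1+/- and WT transplanted cells and 82.0 and 102 units in Sf3b1+/- and WT native cells; here the WT transplanted array stood alone. In chr8:26212577-26218527 on F the brighter probe read 102 and 294 units in Sf3b1+/- and WT transplanted cells, and 207 and 305 units in Sf3b1+/- and WT native cells. A lone read probe of chr8:42462791-42466106 on R read 15.1 and 24.4 units in Sf3b1+/- and WT transplanted cells, and 19.4 and 87.0 units in Sf3b1+/- and WT native cells. Probes of 1 interval did not always follow each other: in chr13:76326228-76332632 on R, 2 probes were higher in Sf3b1+/- transplanted cells by 1.18 and 1.34 and the third by 0.12. The differences between settings were not tested for any of these probes.

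Some longer runs of intervals were higher in Sf3b1+/- native cells and, on the percentile scale but not with spike-in scaling, not throughout in Sf3b1+/- transplanted cells. At chr1:139795171-139857204 on F, a locus of 5 intervals, all 15 read probes were higher in Sf3b1+/- native cells, by 0.29 to 0.79, and lower in Sf3b1+/- transplanted cells, by 0.14 to 0.61. Their median signal was 79.1 units in Sf3b1+/- and 97.1 in WT transplanted cells, and 116 in Sf3b1+/- and 79.0 in WT native cells. With spike-in scaling all 15 were higher in both settings, by 0.01 to 0.47 in transplanted and by 0.53 to 1.04 in native cells, so the opposite sign depends on the scale. At chr13:28898970-28977236 on R, 10 probes of 4 intervals were higher in Sf3b1+/- native cells by 0.28 to 1.20, and differed by -0.56 to 0.18 in transplanted cells, which spike-in scaling turned to 0.06 to 0.79. The brightest read 571 and 593 units in Sf3b1+/- and WT transplanted cells, and 1421 and 759 units in Sf3b1+/- and WT native cells, with the Sf3b1+/- native array well above the other 3. The same array was highest at chr3:35782698-35789932 on R, where 10 probes of 3 intervals had median signals of 60.4 and 61.5 units in Sf3b1+/- and WT transplanted cells, and of 133 and 84.7 units in Sf3b1+/- and WT native cells. Its genotype differences were -0.10 to 0.50 in transplanted and 0.53 to 0.98 in native cells, and 0.51 to 1.11 and 0.77 to 1.22 with spike-in scaling. These runs were picked after the values were seen, and the difference between settings was not tested.

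Genotype was also fitted with setting in 1 additive model over all 24715 probes (limma, 1 residual degree of freedom). No short-interval probe passed the adjusted threshold of 0.05 for genotype, nor did any probe of the array; the background was 0% in each direction and the lowest adjusted p of a short-interval probe was 0.095. Unadjusted p-values under 0.05 went to 418 lower short-interval probes (25.03%, against 11.5% of all probes) and 52 higher ones (3.11%, against 5.53%). With the variance trend switched on in limma, 4.13% of the short-interval probes were called lower, against 1.94% of all probes, and 0.120% higher, against 0.579%. After normexp correction 6.41% were called lower, against 2.3% of all probes, and 0.0599% higher, against 0.457%. On the spike-in scale 0.419% were called lower, against 0.186% of all probes, and 4.85% higher, against 7.21%. That lowest adjusted p of 0.095 was shared by a probe of chr2:128211990-128215223 on R, with a fitted genotype difference of -1.87, and a probe of chr14:70483555-70484159 on F, with one of 1.66.

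Differences between transplanted and native arrays lay in both directions. At least 2-fold higher after transplantation were 42 short-interval probes (2.51%) in Sf3b1+/- cells, where 3.13% of all probes were, and 35 (2.10%) in WT cells, where 1.99% were. At least 2-fold lower were 66 (3.95%) in Sf3b1+/- cells against 1.59% of all probes, and 26 (1.56%) in WT cells against 0.987%. The 2 setting comparisons share no array, but each shares arrays with the genotype comparisons. At least 1.5-fold lower in both were 79 probes (4.73%), against 2.11% of all probes, 1.93% of long-interval and 1.92% of other probes. At least 1.5-fold higher in both were 55 (3.29%), against 3.64% of all probes, a share near the background. The median difference was -0.09 in Sf3b1+/- and 0.07 in WT cells, against 0.00 and 0.04 over all probes; spike-in scaling adds 0.84 and 0.47 and makes both medians positive.

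The additive model called 37 short-interval probes higher (2.22%, against 2.21% of all probes) and 45 lower (2.69%, against 1.07%) after transplantation at an adjusted p of 0.05. These calls depended on the scale. With the percentile taken over all probes limma called 0.180% higher and 0.719% lower, against 0.627% and 0.32% of all probes. With quantile normalization it called none in either direction, among short intervals or all probes. On the main scale 226 higher and 274 lower short-interval probes had an unadjusted limma p under 0.05. These were 13.5% and 16.4%, against 14.7% and 11.4% of all probes, so the higher share was near the background. Quantile normalization gave 169 higher and 334 lower, for which the share of all probes is not given here. With the variance trend 6.05% were called higher, against 9.37% of all probes, and 8.26% lower, against 6.73%. With normexp these were 3.05%, against 5.6%, and 10.9%, against 7.2%, and with spike-in scaling 56.2%, against 61%, and 0.539%, against 0.392%. The examples below are therefore given with the values of a probe on each array, or by their differences in each genotype alone. Where a fitted difference with its SE and adjusted p is also given, it is that of the main scale. With quantile normalization none of these probes was called.

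Higher after transplantation was chr17:35080914-35090009, on both strands. Its first R probe read 81.1 units in transplanted and 27.1 in native Sf3b1+/- cells, and 73.8 in transplanted and 21.4 in native WT cells. That is a fitted difference of 1.68 ± 0.15 (SE; limma adjusted p 0.0137). All 6 R probes were higher, by 0.22 to 1.58 in Sf3b1+/- and by 0.23 to 1.79 in WT cells, and the 4 F probes by 0.17 to 1.56 and by 0.40 to 1.09. With normexp the 6 R probes differed less, by -0.06 to 0.75 in Sf3b1+/- and by 0.03 to 0.64 in WT cells. All 4 read probes of chr11:6421951-6429173 on F were higher too, by 0.73 to 1.1 in Sf3b1+/- and by 0.70 to 1.09 in WT cells; 1 of them read 129 and 64.9 units in transplanted and native Sf3b1+/- cells, and 109 and 66.9 in transplanted and native WT cells. The 2 read probes of chr1:85304494-85305390 on R differed by 1.17 and 1.36 in Sf3b1+/- and by 1.02 and 1.11 in WT cells. In chr11:96175764-96176029 on F the difference was 1.46 to 1.73 in Sf3b1+/- and 0.50 to 0.82 in WT cells, and its brightest probe read 151 and 45.7 units in transplanted and native Sf3b1+/- cells, against 83.8 and 54.3 in transplanted and native WT cells. Genotype differences of its 3 probes were 0.77 to 0.94 in transplanted and -0.25 to 0.07 in native cells; the difference between genotypes was not tested.

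Lower after transplantation, chr9:89167172-89168980 on F had the lowest fitted difference among the short-interval probes called. Its 1 read probe gave 235 units in transplanted and 1301 in native Sf3b1+/- cells, and 227 in transplanted and 711 in native WT cells, a fitted difference of -2.06 ± 0.22 (SE; limma adjusted p 0.0197). Both transplanted arrays were thus alike, and the native arrays differed by 0.87 between Sf3b1+/- and WT cells. On chromosome 10 the 3 probes of chr10:96098058-96098623 on F were lower by 0.78 to 1.33 in Sf3b1+/- and by 0.63 to 1.06 in WT cells, the brightest reading 570.2 and 1304 units in transplanted and native Sf3b1+/- cells and 837 and 1748 in transplanted and native WT cells. The neighbouring chr10:96103732-96103867 on F read 184 and 489 units in transplanted and native Sf3b1+/- cells, and 326 and 792 in transplanted and native WT cells. Over the 6 read probes of this locus the difference was -1.41 to -0.78 in Sf3b1+/- and -1.28 to -0.09 in WT cells. Spike-in scaling turned these to -0.56 to 0.06 and -0.80 to 0.38. Lower at less signal was chr1:133839368-133839762 on F, at 17.05 and 42.4 units in transplanted and native Sf3b1+/- cells and 28.0 and 65.7 in transplanted and native WT cells. A probe of chr17:29378878-29379589 on F read 139.9 and 366 units in transplanted and native Sf3b1+/- cells, and 165 and 353 in transplanted and native WT cells. Of the 4 probes of chr8:129102060-129109035 on R, 3 were lower by 1.57 to 1.88 in Sf3b1+/- cells, and the fourth, the brightest, by 0.22; in WT cells the 3 differed by -0.75 to -0.63 and the fourth by 0.04. The 6 probes of chr17:39982023-39985688 on F had mean signals over the 4 arrays of 7714 to 47992 units. They were lower in both genotypes, by 0.33 to 1.12 in Sf3b1+/- and by 0.26 to 1.02 in WT cells. With spike-in scaling their medians were 0.27 and 0.00.

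Probes that were not read on all arrays give only bounds. There were 29 short-interval probes that passed the background call on the 2 Sf3b1+/- arrays but failed it on the 2 WT arrays (0.439%, against 0.465% of all 55681 probes), and 23 showed the reverse (0.348%, against 0.176%). For transplanted against native arrays the numbers were 111 (1.68%, against 1.44%) and 16 (0.242%, against 0.201%). The largest bound between genotypes was for chr1:52507374-52514124 on R, at least 2.37-fold lower in Sf3b1+/- cells, where 1 of 5 probes had this pattern. Between settings it was for chr15:76193801-76194225 on F, at least 2.80-fold higher after transplantation. Its 2 other probes were read on all arrays. They were higher by 1.00 in Sf3b1+/- and 1.26 in WT cells for 1 probe, and by 1.31 and 0.73 for the other. Next was chr11:58136882-58143829 on R, at least 2.72-fold higher, where all 3 probes had the pattern. A bound sets the mean of the brighter group against the lowest signal that counted as above background on each dim array, or the dim probe's own signal where that was higher. Some probes failed the call above that lowest signal. On the Sf3b1+/- native array it was 10.4 units, and a probe of chrX:6950444-6952293 on R failed at 14.1 units. The words at least thus hold for this definition only.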

How the data were processed

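RNA from sorted LSK cells was hybridised to 4 one-colour Agilent arrays, 1 per group. Per the labels' protocols, cells were sorted by flow cytometry, spike-ins were added to the RNA, and the amplified product carried the dye Cy3. The scanner software, per the file headers, was Feature Extraction 10.7.1.1 (protocol GE1_107_Sep09) on arrays of design 028005, with positions on mm9. The deposited spot intensity is the background-subtracted processed signal, per the file headers, not scaled between arrays. In the deposited matrix of the series each value is, from the values themselves, a linear ratio of that signal to a constant for each array (column medians 0.0747 to 0.0816), not centred on genes, and larger means more signal; which tool made it was not given in the sources used here. Arrays held 59305 non-control and 3671 control spots; control spots were left out, 112 to 125 spots per array were marked as outliers and none was saturated. Of the short-interval probes 2 had their only spot so marked on an array, and its value was kept. All 4 arrays lay on 1 slide, so slide is no batch here; sorting and labelling batches cannot be told apart from the groups.

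Log2 processed signal was shifted by each array's 75th percentile over the probes well above background on all 4 arrays, because the mean share of probes above background was 49.5%. The 75th percentile of the processed signal was 2690, 1827, 1943 and 1653 in Sf3b1+/- transplanted, WT transplanted, Sf3b1+/- native and WT native cells; with 1 array per group, the number of arrays limits the precision. Pairwise differences have no test. An additive model of genotype and setting was fitted in R 4.3.3 by lmFit and eBayes of limma 3.58.1 (prior of 5.00 degrees of freedom, two-sided, Benjamini-Hochberg adjustment over 24715 probes), and was tested on simulated data. Its residual is how far a probe's genotype difference disagrees between native and transplanted cells, part of which may be technical. To this eBayes adds a prior drawn from all probes. The SEs and p-values therefore do not measure spread between animals or replicate arrays. Tables were made with pandas 2.3.3 in Python 3.11.15 and the R package data.table (version 1.17.8).

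Alternatives were the percentile over all probes, quantile normalization, scaling to 7 spike-in probes, normexp with an offset of 50 on the spot medians, the deposited matrix, 2 arrays in place of 4, an interval limit of 5000 bases, 1 probe per interval and strand, and a 2-fold limit. The members and lists were chosen with earlier results of these data known. Named were the 10 brightest probes, the 5 most extreme each way in each comparison, up to 10 each way in both genotype or both setting comparisons, the brightest intervals with both strands, the 5 largest bounds and up to 10 probes called by the model; other probes of the same interval and loci were added after values were seen. The 13 position-named probes without a strand letter were left out. Probe sequences, an mm9 genome and positions of gene probes were not used here.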

Additional observations from a re-analysis of the deposited data

Results flagged for a closer look

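In 4 of the 1670 short-interval probes read, the direction of a difference was opposite in the other setting or genotype by at least 1.5-fold each way. The same count over all probes is not given here, so no background stands beside it. With 1 array per group the difference was not tested. A probe of chrX:98989930-98994344 on F differed between Sf3b1+/- and WT by -0.98 (log2) in transplanted and 0.63 in native cells; it read 34.3 and 67.7 units in Sf3b1+/- and WT transplanted cells, and 33.8 and 21.9 units in Sf3b1+/- and WT native cells, and with spike-in scaling it differed by -0.37 and 0.87. A probe of chr1:139795171-139796306 on F differed by -0.61 in transplanted and 0.59 in native cells, and by 0.01 and 0.83 with spike-in scaling. Between transplanted and native cells, a probe of chr8:26212577-26218527 on F differed by -0.63 in Sf3b1+/- and 0.83 in WT cells, and by 0.21 and 1.30 with spike-in scaling. The probe of chr4:131905739-131910814 on R differed by -1.74 in Sf3b1+/- and 0.85 in WT cells, and by -0.89 and 1.32 with spike-in scaling. With normexp none of the 4 kept 1.5-fold in both directions: the chrX probe differed by 0.13 and the chr1 probe by 0.38 in native cells, and the chr8 probe by 0.24 and the chr4 probe by 0.30 in WT cells. The highest signal of these 4 probes on any array was 78.3 units.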

How the results depend on the processing

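No paired analysis was possible because each group has 1 array and the labels number every sample as replicate 1; for the same reason no array could be left out of the model. Counts below are given in the order of the comparisons of Sf3b1+/- with WT in native and then transplanted cells, and of transplanted with native cells in Sf3b1+/- and then WT. At least 2-fold higher were 6, 8, 42 and 35 short-interval probes and at least 2-fold lower 28, 59, 66 and 26. Spike-in scaling moved these to 26, 95, 469 and 226 higher and 15, 4, 3 and 9 lower of 1670. Of all probes read 1.08%, 12.5%, 34.9% and 9.77% were then higher and 0.356%, 0.113%, 0.223% and 0.344% lower. Normexp gave 0, 1, 2 and 5 higher and 7, 14, 29 and 8 lower. Of all probes read 0.202%, 0.356%, 1.21% and 0.591% were then higher and 0.243%, 0.405%, 0.846% and 0.332% lower. Among probes above background on 2 or more arrays there were 33, 24, 100 and 101 higher and 95, 109, 105 and 63 lower. With 1 probe per interval and strand the counts were 3, 3, 21 and 16 higher and 16, 33, 35 and 12 lower, and with a limit of 5000 bases 16 lower in native, 3 higher and 33 lower in transplanted, and 14 lower in WT cells. For these choices of probes, including 2 or more arrays, the share of all probes is not given here. For transplanted minus native in WT cells, 23 were higher with the percentile over all probes, 23 with the deposited matrix and 21 with quantile normalization, which gave 41 lower. Of all probes read 1.59%, 1.60% and 1.61% were higher in the same order, and quantile normalization gave 1.25% lower. At 1.5-fold in both genotype comparisons 5 were higher and 95 lower; at 2-fold 1 and 11, with quantile normalization 11 and 63, with spike-in scaling 82 and 3, and with normexp 1 and 25. With normexp 0.125% of all probes read were at least 1.5-fold higher and 0.611% lower in both genotype comparisons. In both setting comparisons 55 were higher and 79 lower. At 2-fold these were 8 and 11, with spike-in scaling 655 and 2, and with normexp 9 and 26. The shares of all probes for these setting alternatives and for the 2-fold genotype counts are not given here. As a share of the 1670 probes, limma's genotype calls, 0% in both directions, were 0.120% higher and 4.13% lower with eBayes trend, 4.85% and 0.419% with spike-in scaling and 0.0599% and 6.41% with normexp. Its setting calls, 2.22% higher and 2.69% lower, were 6.05% and 8.26% with trend, 0.180% and 0.719% with the percentile over all probes, 0% and 0% with quantile normalization, 56.2% and 0.539% with spike-in scaling, and 10.9% lower with normexp. Spike-in scaling adds 0.24, 0.61, 0.84 and 0.47 to every difference by construction; the cause of the other moves was not tested. The short intervals' median minus that of all probes was 0.02 for setting in WT cells and turned to -0.000143 with quantile normalization and -0.018 with normexp; for the other 3 comparisons it was below 0 with both of these, the scalings that do not shift all probes alike. Of 704 values of single named probes, all moved by more than the SD that repeat spots give a difference of 2 arrays with spike-in scaling, 275 with normexp, 23 with quantile normalization and none with the percentile over all probes or the deposited matrix. Low signal limits the dim intervals: the SD between spots was 0.19 (log2) below 31.25 units and 0.05 among the brightest probes.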
